A study of Mus musculus with 6 samples.

Results

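Guanylin signalling and the receptors of the main secretagogues control how much salt and water the colon secretes or takes up. The genes considered here are Guca2a (guanylin), Guca2b (uroguanylin), Gucy2c (their receptor, guanylyl cyclase C), Prkg2 (cyclic GMP-dependent protein kinase II), Vipr1 (a receptor of vasoactive intestinal peptide, VIP), Ptger4 (the prostaglandin E2 receptor EP4) and Adora2b (an adenosine receptor). They were taken by name: a probe set, the group of short oligonucleotides that reads 1 transcript, belonged to them if its platform annotation named exactly 1 gene and that gene was on this list. This gave 10 of 45101 probe sets, for 6 of the 7 genes. No probe set named Adora2b alone, and it was not analysed here.

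Total RNA came from the colon of mice aged 6 to 8 weeks, dissected whole, and was hybridised to Affymetrix MOE430 2.0 arrays. The groups were NHE3-/- (3 arrays), deficient in the sodium-hydrogen exchanger NHE3 encoded by Slc9a3, and NHE3+/+ (3 arrays), wild-type littermates of these mice. The labels give no treatment for either group. The labels do not state which part of Slc9a3 is disrupted, whether an array holds 1 animal or several, or the sex of the animals, so p-values measure the spread between arrays, which may be technical.

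Guanylin and uroguanylin are small peptides that the intestinal epithelium releases into the lumen. They bind guanylyl cyclase C on the luminal membrane, cyclic GMP rises in the cell, and the membrane-bound kinase encoded by Prkg2 then opens the chloride channel CFTR and inhibits NHE3. VIP, prostaglandin E2 and adenosine act on receptors coupled to adenylyl cyclase, and the cyclic AMP they raise also drives chloride secretion and inhibits NHE3. In mice without NHE3, an endpoint that these signals inhibit is missing.

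Uroguanylin rose, and the kinase Prkg2 and the prostaglandin receptor Ptger4 fell, while guanylin, guanylyl cyclase C and Vipr1 did not pass the test. Of the 10 probe sets, all above the filter on low signals, 1 was higher and 3 were lower in NHE3-/- colon at a limma adjusted p under 0.05 (called, in what follows). Among all 27022 probe sets tested, 4.97% were called higher and 6.24% lower, so that 44.3% of the calls were higher, and 65.6% were with medians set equal on all arrays. With that scaling 1 member probe set was called lower. All 3 NHE3-/- arrays lay below all 3 NHE3+/+ arrays for 6 of the 10, against 20.1% of all probe sets tested, and above them for 2 of the 10, against 12.2%. Probe sets of 1 gene read the same transcript and are not separate evidence. The median log2 fold change of the 10 was -0.35, and that of all probe sets tested was -0.10. In tissue RNA, fewer cells of a type and less RNA per cell cannot be told apart.

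Guca2a and Guca2b are neighbours on mouse chromosome 4, with no other protein-coding gene between them in RefSeq (GRCm38.p6). Guca2b rose while Guca2a did not pass the test, so the 250 bases before each start site are shown, with those of Ptger4, the member with the smallest adjusted p. The sequences are RefSeq's on build GRCm38.p6, at chr4:119637482-119637731 (plus strand) for Guca2a, chr4:119658946-119659195 (minus strand) for Guca2b and chr15:5244188-5244437 (minus strand) for Ptger4. Each runs 5′ to 3′ towards the start site. Capitals mark matches on either strand to 6 short motifs.
Guca2a: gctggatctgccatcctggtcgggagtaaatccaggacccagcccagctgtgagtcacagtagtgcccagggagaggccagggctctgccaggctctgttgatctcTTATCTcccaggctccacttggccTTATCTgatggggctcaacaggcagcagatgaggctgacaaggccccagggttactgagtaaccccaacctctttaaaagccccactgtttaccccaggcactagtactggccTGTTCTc
Guca2b: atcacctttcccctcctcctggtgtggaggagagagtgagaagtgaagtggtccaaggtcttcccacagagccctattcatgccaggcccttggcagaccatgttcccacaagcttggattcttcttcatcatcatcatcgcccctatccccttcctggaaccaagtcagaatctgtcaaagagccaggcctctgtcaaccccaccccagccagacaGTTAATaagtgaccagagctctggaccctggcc
Ptger4: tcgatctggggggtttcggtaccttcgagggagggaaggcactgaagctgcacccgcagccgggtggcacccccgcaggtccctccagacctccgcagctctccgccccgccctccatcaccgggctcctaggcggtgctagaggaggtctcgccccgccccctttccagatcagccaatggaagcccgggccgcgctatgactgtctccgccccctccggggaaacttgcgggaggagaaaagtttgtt

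The upstream sequences of the peptide genes share none of the motifs found. Guca2a holds 2 matches to AGATAA, read by GATA factors (written TTATCT on the strand shown), starting 144 and 120 bases before the start site, and 1 match to TGTTCT, a half-site of steroid receptors, 7 bases before it. Guca2b holds 1 match to GTTAAT, a half-site of HNF1, 33 bases before it. The 3 other letters searched for were TTTATG (CDX factors), TGACGT (the core of the cyclic AMP response element) and TATAAA (the TATA box). Neither gene had these in this window, and Ptger4 had none of the 6. Of 32851 upstream windows of the same length, 9.99% hold AGATAA, 6.43% GTTAAT, 16.1% TGTTCT, 10.8% TTTATG, 6.47% TGACGT and 12.4% TATAAA, each on either strand. GC content was 57.2% for Guca2a, 54.4% for Guca2b and 66.8% for Ptger4, with a median of 52.4% over all windows. The motifs were picked with these sequences in view, and a match describes letters, not a bound site. The promoter table matched 5 of the 7 genes.

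Some facts of the arrays bear on every value. The arrays had been scaled alike by the submitters, with trimmed means of 499.2 to 499.9 and highest signals between 43643 and 68917. NHE3-/- arrays 1 and 2 stood apart in Xist, the RNA of the inactive X chromosome, with signals of 1562 and 1405 at its brightest probe set, against 80.8 on NHE3-/- array 3 and 142.4 to 207.7 on the NHE3+/+ arrays. No NHE3+/+ array had such Xist signals. On NHE3-/- arrays 1 and 2 a difference of sex therefore cannot be told apart from one of genotype. Each member is therefore also given with NHE3-/- array 3 alone, with its spread taken to be that of the NHE3+/+ arrays. The brighter Slc9a3 probe set had signals of 5647 to 6669 in NHE3+/+ and 3665 to 5970 in NHE3-/- (log2 fold change -0.42, adjusted p = 0.12), and it was called lower with NHE3-/- array 3 alone (-0.72, adjusted p = 0.0274) or without NHE3-/- array 1 (-0.61, adjusted p = 0.0199). The dimmer probe set went the other way without passing (0.76, adjusted p = 0.23). Neither can check the genotype while the disrupted part is unknown. The summed signal of 12 colonocyte markers was 263112 to 322912 in NHE3+/+, whereas that of 8 smooth muscle markers was 1728 to 2012 and that of 8 markers of enteric neurons and glia 547 to 643. Cnn1 and Lmod1 of muscle, and Elavl4, Prph, S100b and Gfap of neurons and glia, lay under the filter although the tissue is labelled whole colon.

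**Figure D1:**
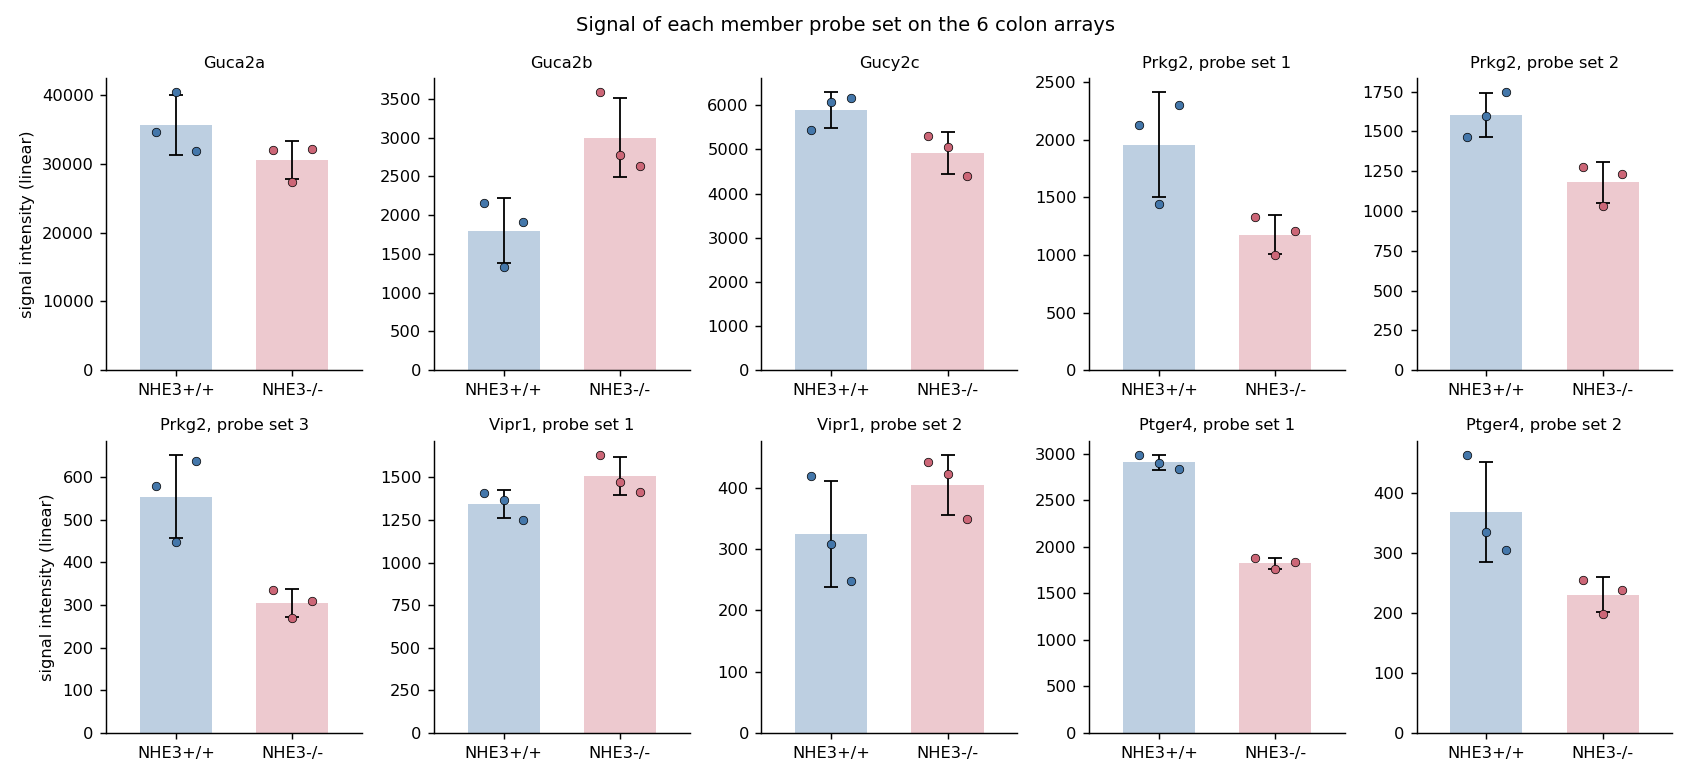
Signal intensity (linear scale from 0) of each of the 10 member probe sets, with 1 point per array, bars for the mean and error bars for the SD (n = 3 per genotype). Guca2b is higher on every NHE3-/- array, all 3 Prkg2 and both Ptger4 probe sets are lower on every one, and the genotypes overlap for Guca2a.

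The peptide hormones come first. Guca2a, the more abundant guanylyl cyclase ligand of the colon in textbook accounts, had signals of 34717, 40430 and 31928 on NHE3+/+ arrays 1, 2 and 3. On NHE3-/- arrays 1, 2 and 3 they were 32083, 27374 and 32203. The groups overlapped, since NHE3-/- arrays 1 and 3 lay above NHE3+/+ array 3. The mean was 35692 ± 4334 (SD, n = 3) in NHE3+/+ and 30553 ± 2754 (SD, n = 3) in NHE3-/-, so that the log2 fold change was -0.22 (SE 0.11, 95% interval -0.47 to 0.03, adjusted p = 0.24). Guca2a did not pass the threshold on the deposited scale, but with quantile normalization it was called lower (-0.38, adjusted p = 0.0346). With NHE3-/- array 3 alone the change was -0.14 (adjusted p = 0.661).

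Guca2b rose. Its signals were 2156, 1333 and 1913 on NHE3+/+ arrays 1, 2 and 3 and 3586, 2775 and 2640 on NHE3-/- arrays 1, 2 and 3. All NHE3-/- arrays were above all NHE3+/+ arrays, with NHE3+/+ array 2 lowest of all and NHE3-/- array 1 highest. The mean rose from 1800 ± 423 to 3000.2 ± 512 (SD, n = 3 each), 1.67 times the NHE3+/+ mean, and the log2 fold change was 0.74 (SE 0.18, adjusted p = 0.0228). The call was lost without either of these arrays: without NHE3+/+ array 2 the change was 0.54 (adjusted p = 0.0713), and without NHE3-/- array 1 it was 0.61 (adjusted p = 0.08). With NHE3-/- array 3 alone it was 0.57 (adjusted p = 0.203). The call was also lost when the variance was modelled without a mean-variance trend (adjusted p = 0.105).

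The change of uroguanylin relative to guanylin can be read within each array, where an array-wide scaling drops out. An array effect that depends on signal level does not drop out, and guanylin was far brighter. The log2 signal of Guca2b minus that of Guca2a was greater by 0.96 in NHE3-/- than in NHE3+/+ (SD within the groups 0.23 and 0.51, n = 3 each), and all 3 NHE3-/- arrays lay above all 3 NHE3+/+ arrays. The exact permutation p was 0.1 (two-sided), and groups of 3 arrays cannot give a smaller one. Guca2b alone already separated the groups, so this p is not separate evidence. The difference ran from 0.67 to 1.12 over 15 alternative settings. It was smallest without NHE3+/+ array 2, whose log2 signal of Guca2b minus that of Guca2a was the lowest, at -4.89.

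Gucy2c, the receptor of both peptides and of bacterial heat-stable enterotoxin, did not pass the threshold. NHE3+/+ arrays gave 5436, 6072 and 6173 and NHE3-/- arrays 5293, 5059 and 4389. All NHE3-/- arrays were lower, though NHE3-/- array 1 and NHE3+/+ array 1 lay close together. The log2 fold change was -0.26 (SE 0.11, 95% interval -0.50 to -0.03, adjusted p = 0.142), and the interval allows a fall of up to 0.50 on the log2 scale. With NHE3-/- array 3 alone the change was -0.42 (adjusted p = 0.141). Over the alternatives the adjusted p ran from 0.0543 to 0.446.

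Prkg2, the kinase that carries the cyclic GMP signal to CFTR and NHE3, was read by 3 probe sets and was lower in all of them. The brightest had signals of 2125, 1438 and 2301 on NHE3+/+ arrays 1, 2 and 3 and 1327, 997.6 and 1205 on NHE3-/- arrays 1, 2 and 3. The second had 1466, 1598 and 1746 against 1277, 1031 and 1230. The dimmest had 579.1, 447 and 637 against 334.2, 268.9 and 308.5. In each, all NHE3-/- arrays lay below all NHE3+/+ arrays, and NHE3-/- array 2 was the lowest.

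The brightest and the dimmest Prkg2 probe sets were called lower, with log2 fold changes of -0.70 (SE 0.18, adjusted p = 0.0294) and -0.80 (SE 0.18, adjusted p = 0.0173). The second had -0.44 (SE 0.13, adjusted p = 0.0522) and missed the threshold. Mean signal was 0.602, 0.736 and 0.548 times that of NHE3+/+ in this order. Both calls were lost with medians set equal on all arrays (-0.61, adjusted p = 0.0928, and -0.70, adjusted p = 0.0535) and without a mean-variance trend (adjusted p = 0.112 and 0.0534). They were also lost without NHE3+/+ array 3 (-0.57 and -0.69), without NHE3-/- array 2 (-0.59 and -0.72) and with NHE3-/- array 3 alone (-0.66, adjusted p = 0.154, and -0.77, adjusted p = 0.114). The brightest probe set lost its call without NHE3+/+ array 1 (-0.63) or NHE3-/- array 3 (-0.72) too. The second was called under the stricter filter (adjusted p = 0.0404), where fewer probe sets are tested.

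**Figure D2:**
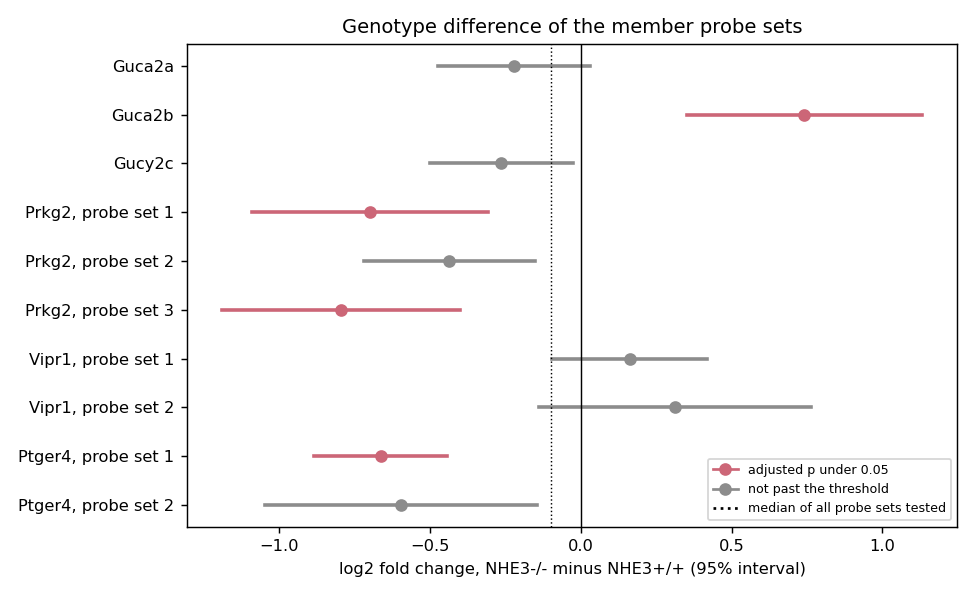
Log2 fold change of NHE3-/- over NHE3+/+ for each member probe set (points) with its 95% limma interval (lines), and the median of all probe sets tested (dotted). Guca2b lies to the right at 0.74, and the 3 Prkg2 and 2 Ptger4 probe sets lie to the left, between -0.44 and -0.80.

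Among the receptors coupled to cyclic AMP, Ptger4 had the firmest change of the set. EP4 receives prostaglandin E2, which stimulates chloride secretion and also maintains the epithelial barrier. The brighter probe set had signals of 2984, 2898 and 2830 on NHE3+/+ arrays 1, 2 and 3 and 1876, 1757 and 1833 on NHE3-/- arrays 1, 2 and 3. The groups were far apart and arrays of a genotype were close together. The NHE3+/+ mean was 2904 ± 77.1 and the NHE3-/- mean 1822 ± 60.2 (SD, n = 3 each), and the log2 fold change was -0.66 (95% interval -0.88 to -0.44, adjusted p = 0.00235). The dimmer probe set had 463.1, 335.6 and 305.5 against 255.4, 197.6 and 238.4, again with no overlap, but at -0.60 (95% interval -1.04 to -0.15, adjusted p = 0.0861) it did not pass. The brighter held its call under all 15 alternatives, with changes from -0.69 to -0.57 and adjusted p from 0.00172 to 0.0396. With NHE3-/- array 3 alone the change was -0.65 at the brighter probe set and -0.55 at the dimmer. That setting gave the largest adjusted p of the range for the brighter.

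Vipr1, the epithelial VIP receptor, showed no change past the threshold. Its brighter probe set had 1409, 1369 and 1250 in NHE3+/+ and 1632, 1472 and 1416 in NHE3-/-, with every NHE3-/- array slightly above every NHE3+/+ array. The log2 fold change was 0.16 (SE 0.12, 95% interval -0.10 to 0.42, adjusted p = 0.402). The dimmer had 418.7, 309.1 and 247.4 against 442.3, 422.4 and 349.6, with overlap, and 0.31 (SE 0.21, 95% interval -0.14 to 0.76, adjusted p = 0.352). At the brighter probe sets, every NHE3-/- array was above every NHE3+/+ array for Vipr1 and below for Ptger4. Their difference within each array therefore had to separate the groups, and its exact permutation p of 0.1 is not separate evidence. This log2 difference, Vipr1 minus Ptger4, was greater by 0.83 in NHE3-/- (SD 0.086 in NHE3-/- and 0.055 in NHE3+/+, n = 3). It was 0.73 with NHE3-/- array 3 alone, where the Vipr1 probe sets themselves had 0.077 (adjusted p = 0.847) and 0.12 (adjusted p = 0.858).

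**Figure D3:**
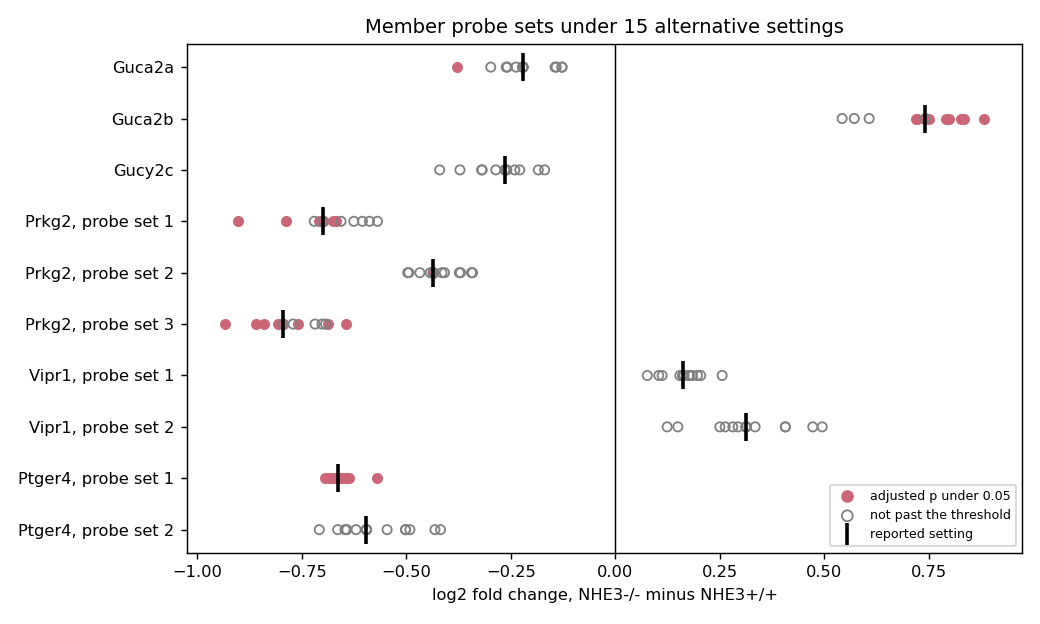
Log2 fold change of each member probe set under 15 alternative settings (circles, filled where the adjusted p is under 0.05) and as reported (black bar). No probe set changed sign, all settings kept the call of the brighter Ptger4 probe set, and filled and open circles mix for Guca2b and Prkg2.

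Around these genes, 7 lists of pathway genes were counted, each gene through its probe set of highest mean signal. Of 122 genes, 77 were above the filter, 34 were under it and 11 had no probe set naming them alone. Of the 77 tested, 7 were called higher and 11 lower, against the 4.97% and 6.24% called over all probe sets. The bases are unlike, since each list gene is read at its brightest probe set. With the filter at the 60th percentile, 1411 of 18015 probe sets were called higher and 1790 lower. The counts of each list below stand against these same shares. The 11 became 6 with medians set equal and 3 without NHE3+/+ array 3.

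The cyclic GMP list had 13 of 23 genes tested, of which 1 rose and 3 fell (median log2 fold change 0.16). Both large changes were in phosphodiesterases, the enzymes that destroy the messenger of guanylyl cyclase C. Pde9a, which is highly selective for cyclic GMP, had signals of 2592, 3542 and 3595 on NHE3+/+ arrays and 11239, 9993 and 11000.2 on NHE3-/- arrays. Every NHE3-/- array was far above the NHE3+/+ arrays, and the log2 fold change was 1.73 (SE 0.13, adjusted p = 2.8e-05).

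Pde2a, which degrades cyclic AMP and cyclic GMP and is stimulated by cyclic GMP, moved the opposite way. Its brightest probe set had 5404, 4827 and 5135 in NHE3+/+ and 1781, 1820 and 1193 in NHE3-/-. The groups were well separated, and the change was -1.68 (log2, SE 0.15, adjusted p = 9.5e-05). The other Pde2a probe sets had -1.70, called, and -0.55, not called. Pde9a and Pde2a were called in the same direction under all 15 alternatives.

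Pde5a, the cyclic GMP-specific enzyme inhibited by sildenafil, was called lower at -0.64 (adjusted p = 0.0251). That probe set is of a type whose probes can match other transcripts, and the other Pde5a probe sets had -0.19 and -0.38 and were not called. Pde5a lost its call under 6 of 15 alternatives. Pde1c, a calcium-stimulated enzyme, was called at -0.89 (adjusted p = 0.0443) but held this under 3 of 14 alternatives, and its other tested probe set had 0.11 (adjusted p = 0.85). Prkg1, the soluble cyclic GMP-dependent kinase of smooth muscle, lay under the filter, with signals of 14.5 to 102 at its brighter probe set. Vasp, a substrate of these kinases, had 0.22 (adjusted p = 0.14).

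In the VIP and PACAP list 2 of 6 genes were tested and 1 fell (median -0.65). Vip, Adcyap1 (PACAP) and its receptor Adcyap1r1 lay under the filter. Vipr2, the VIP receptor of smooth muscle, had 151.2, 139.8 and 135.8 on NHE3+/+ arrays and 36, 36.5 and 21.9 on NHE3-/- arrays. All NHE3-/- signals were lower, and they were below the signal of 60.2 to which the filter corresponds. Vipr2 was thus tested only because it was high in NHE3+/+, and the single call of this list is to be read with that limit. Its adjusted p was 0.00952, and its fitted log2 fold change of -1.47 is no measured size, since it ran from -1.95 with a pseudocount of 8 to -0.88 with one of 100. The 8 smooth muscle markers gave 0 higher and 0 lower of 6 tested, with summed signals of 1325 to 2628 in NHE3-/-, and their part in the Vipr2 result was not tested.

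In the adenosine list 7 of 13 genes were tested, 2 rose and 1 fell (median 0.15), all of them enzymes that make or remove adenosine. Nt5e, the surface enzyme CD73 that makes adenosine from AMP, had 2226, 2235 and 2565 in NHE3+/+ and 4991, 4206 and 6823 in NHE3-/-, with no overlap. Its log2 fold change was 1.15 (SE 0.16, adjusted p = 0.00131), and a second probe set had 1.61, also called.

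Ada, adenosine deaminase, which turns adenosine into inosine, had 489.7, 434 and 748 in NHE3+/+ and 5011, 4823 and 4383 in NHE3-/-. Its mean signal was 8.50 times higher in NHE3-/-, the log2 fold change was 3.05 (SE 0.17, adjusted p = 5.5e-06), and the groups did not come near each other. Adk, adenosine kinase, which returns adenosine to AMP, fell by 0.68 on the log2 scale (SE 0.12, adjusted p = 0.00438) at a brightest probe set whose probes can match other transcripts. Of its 5 other probe sets, 1 was called lower at -0.91, 2 were not called and 1 lay under the filter. The remaining one was also called lower, but its NHE3-/- mean of 37.3 was under the filter signal, so it was tested only because it was high in NHE3+/+. Adk lost its call without a mean-variance trend (adjusted p = 0.0573). Adora3 had -0.11 (adjusted p = 0.836), turning to 0.03 without NHE3-/- array 2, and no probe set named Adora1 or Adora2a alone.

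**Figure D4:**
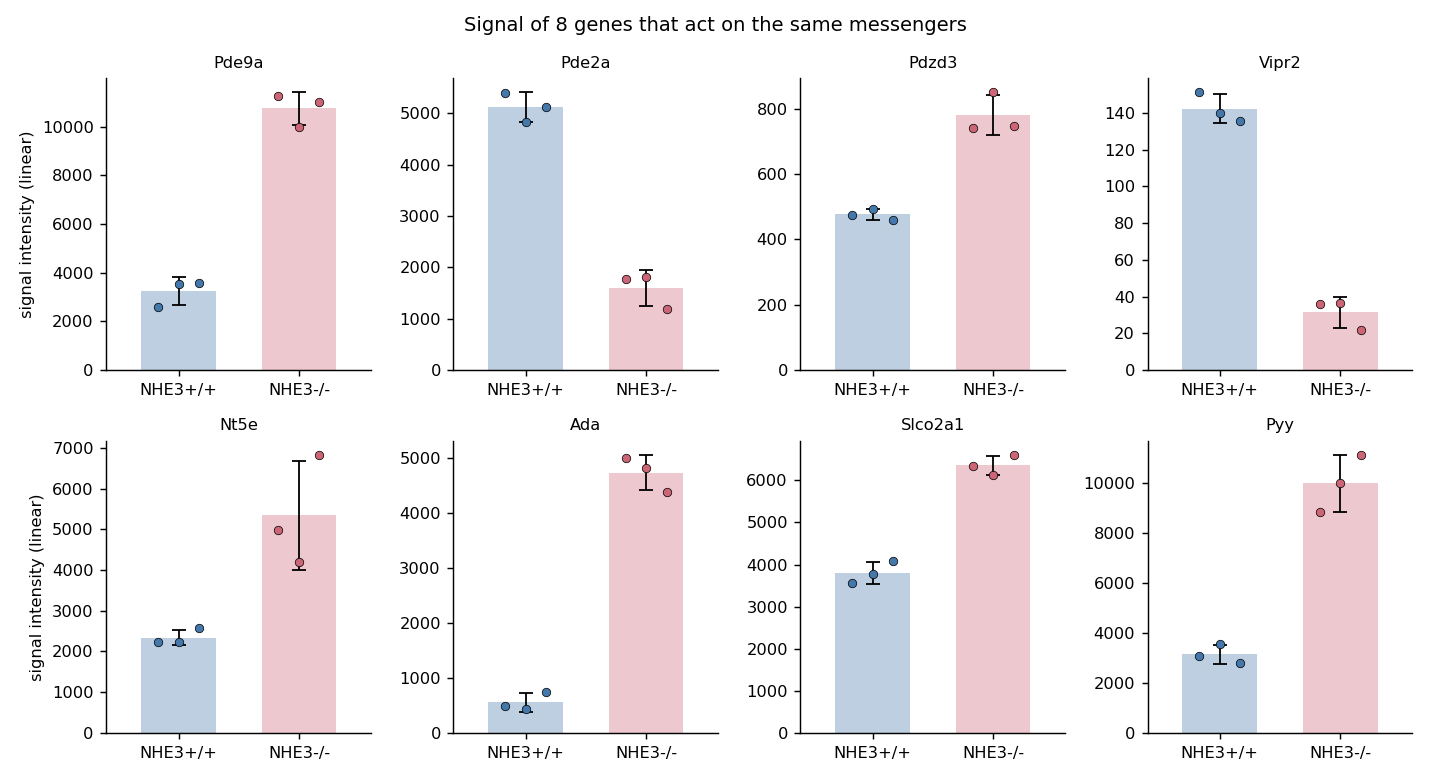
Signal intensity (linear scale from 0) of 8 genes that make, degrade, carry, bind or receive the messengers or their receptors, upstream or downstream of the member genes, with 1 point per array and mean ± SD (n = 3 per genotype). Pde9a, Pdzd3, Nt5e, Ada, Slco2a1 and Pyy are higher on every NHE3-/- array, and Pde2a and Vipr2 are lower on every one.

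In the prostaglandin E2 list 5 of 10 genes were tested, 1 rose and 0 fell (median 0.22). Slco2a1, the transporter that clears prostaglandins from outside the cell, had 3562, 3785 and 4081 in NHE3+/+ and 6332, 6137 and 6602 in NHE3-/-. The groups were apart, with a change of 0.74 (log2, SE 0.098, adjusted p = 0.00107). A second probe set had 0.95, called, and both others, at 0.35 and 0.53, were not. Hpgd, which inactivates prostaglandin E2 inside the cell, had -0.05 (adjusted p = 0.824). The EP3 gene Ptger3 had -0.19 (adjusted p = 0.654), and Ptger1, Ptger2 and the inducible cyclooxygenase Ptgs2 lay under the filter. No probe set named Ptgs1 alone.

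In the cyclic AMP list 24 of 28 genes were tested, 1 rose and 3 fell (median -0.13). Gnas, the stimulatory G protein of these receptors, had 0.15 (adjusted p = 0.319). Prkacb, a catalytic subunit of protein kinase A, was called higher at 0.48 (adjusted p = 0.0264), with a dimmer probe set at 1.09, also called. The call of the brighter was lost under 8 of 15 alternatives, among them NHE3-/- array 3 alone (0.30). Pde4b, a phosphodiesterase specific for cyclic AMP, was called lower at -1.42 (SE 0.31, adjusted p = 0.0155). This is no measured size, since its NHE3-/- mean of 66.6 was little above the filter signal of 60.2. The change ran from -2.11 to -0.96 over 14 alternatives. Pde8a, another such enzyme, fell by 0.97 on the log2 scale (SE 0.20, adjusted p = 0.0111). None of the other Pde4b and Pde8a probe sets was called. Pde4b lost its call without NHE3+/+ array 2 or 3, and Pde8a without NHE3+/+ array 3 or with NHE3-/- array 3 alone. The transcription factor Creb1 was called lower at -0.49 (adjusted p = 0.0419), a call lost under 10 of 15 alternatives, and its 3 other tested probe sets were not called.

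Of the proteins on which these signals end, 11 of 12 genes were tested, 1 rose and 2 fell (median -0.18). Pdzd3, a scaffold that binds guanylyl cyclase C and NHE3, had 475.8, 494.4 and 458.7 in NHE3+/+ and 741, 849.9 and 747.7 in NHE3-/-. All NHE3-/- arrays were higher, and the log2 fold change was 0.67 (SE 0.14, adjusted p = 0.0109). It was 0.62 (adjusted p = 0.133) with NHE3-/- array 3 alone. Slc9a3r2, the scaffold NHERF2 that joins Prkg2 to NHE3, was called lower at -0.96 (adjusted p = 0.0235), as were 2 of its 5 other probe sets, while 1 of them had -0.0012. One of those called had an NHE3-/- mean of 38.7, under the filter signal, and was tested only because it was high in NHE3+/+. Slc9a3r1, the scaffold NHERF1, had 0.38 (adjusted p = 0.0681).

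Cftr, the chloride channel at the end of both routes, had -0.18 (95% interval -0.48 to 0.12, adjusted p = 0.418). Kcne3, the potassium channel subunit that supports chloride secretion, was called lower at -0.52 (adjusted p = 0.0214). This was lost with medians set equal on all arrays (-0.42, adjusted p = 0.111) and under 7 of 15 alternatives in all, and Slc9a3r2 under 7 of 15.

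Among other secretory and antisecretory hormones and receptors, 15 of 30 genes were tested, 1 rose and 1 fell (median -0.29). Pyy, a hormone of endocrine L cells that inhibits secretion, had 3089, 3542 and 2781 in NHE3+/+ and 8842, 9975 and 11112 in NHE3-/-, with a change of 1.66 (log2, adjusted p = 2.4e-05). Its groups did not overlap. Chrm1, a muscarinic receptor, was called lower at -0.69 (adjusted p = 0.0217), a call lost under 9 of 15 alternatives.

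**Figure D5:**
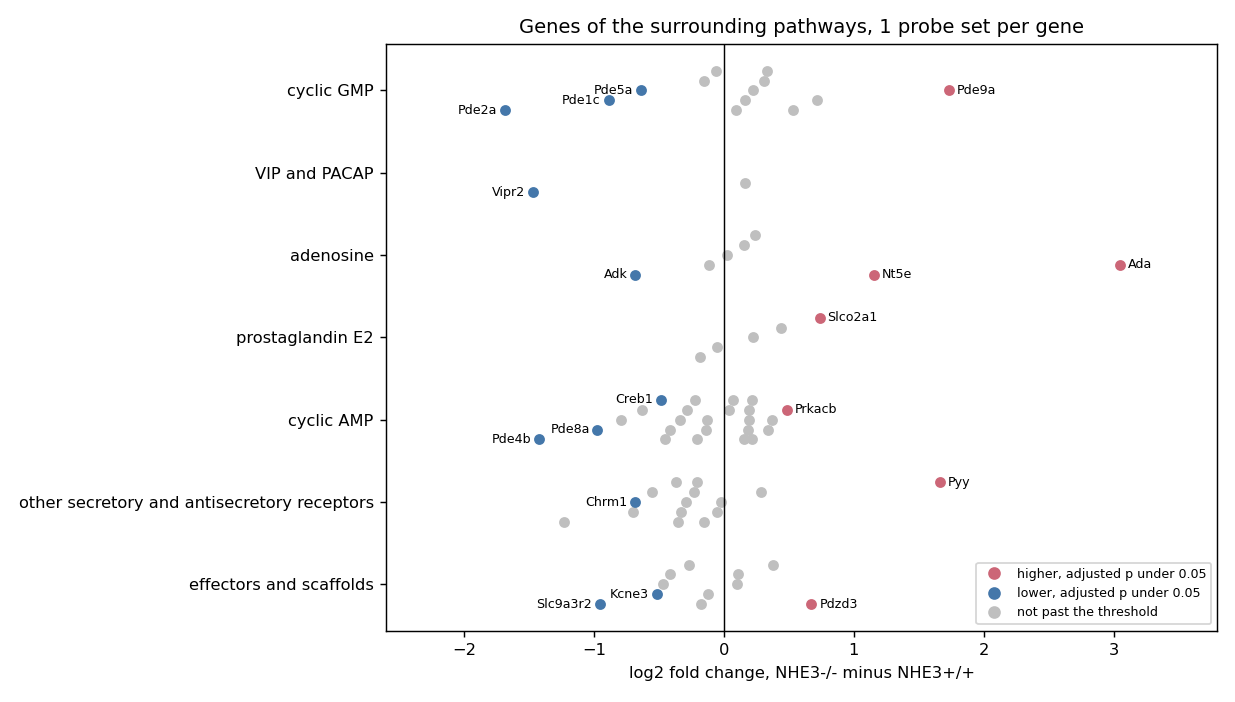
Log2 fold change of NHE3-/- over NHE3+/+ for the 77 pathway genes tested, 1 point per gene at its probe set of highest mean signal, by list, coloured by call. Ada lies farthest to the right at 3.05 and Pde2a farthest to the left at -1.68, and most genes are grey.

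Cell type markers moved with genotype beside these results. The counts here and in the next paragraph stand against 4.97% called higher and 6.24% called lower among all probe sets tested. With the filter at the 60th percentile these were 1411 and 1790 of 18015. Of 12 colonocyte markers, 7 were called higher and 0 lower, the largest being Slc51b (1.80) and Saa1 (1.24), and their summed signal was 361665 to 470181 in NHE3-/-. Of 9 crypt base and dividing cell markers tested, 6 were lower and 0 higher, led by Lgr5 (-1.20) and Smoc2 (-1.08), with sums of 11591 to 14695 in NHE3+/+ and 8638 to 10324 in NHE3-/-. Goblet cell markers gave 4 lower and 0 higher of 10, led by Ang4 (-4.02) and Reg4 (-1.74), with sums of 271126 to 325693 and 235958 to 293016. The other goblet cell markers were not called: Muc2 (-0.03), Fcgbp (0.06), Clca1 (0.07), Zg16 (0.27), Tff3 (0.34) and Agr2 (-0.36). Among 9 enteroendocrine and tuft cell markers, Insl5 was higher (1.43) and 3 were lower, led by Avil (-0.84) and Dclk1 (-0.81), with sums of 15536 to 16076 and 16431 to 20581.

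Immune cell markers gave 4 higher and 0 lower of 14 tested, among them Mcpt1 (2.75) and S100a8, with sums of 9284 to 12966 and 13695 to 20432. Of those not called, Ms4a1 (-1.42, adjusted p = 0.0784), Cd79a (-1.13, adjusted p = 0.0562) and Ptprc (-0.89, adjusted p = 0.0813) were lower. NHE3+/+ array 2 was the brightest array for all of these, with 1161, 1011 and 2630. NHE3+/+ arrays 1 and 3 had 408 and 587 for Ms4a1, 383 and 561 for Cd79a, and 1167 and 1169 for Ptprc. The genotypes overlapped for Ms4a1 and Cd79a. Cd3e (0.72) and Jchain (0.60), also not called, were higher. S100a8 had 41.2 to 59 in NHE3+/+, under the filter signal of 60.2, and 717.7 to 3034 in NHE3-/-, so it was tested only because it was high in NHE3-/-, and its fold is not given. Markers of small intestine gave 1 higher, Apoa1 (1.67), of 7, with sums of 29018 to 37739 and 27774 to 38954. Of the 4 tested markers of enteric neurons and glia, 0 were called, with sums of 398 to 949 in NHE3-/-. None of these lists had a marker with a signal of exactly 0. Beside all these markers, Guca2b rose, Prkg2 and Ptger4 fell, and Guca2a (-0.22), Gucy2c (-0.26) and Vipr1 (0.16 and 0.31) were not called. Of the endocrine genes, Insl5 rose with Pyy, Chga was called lower (-0.57, adjusted p = 0.0251), and Gcg, the proglucagon gene of L cells, had -0.01 (adjusted p = 0.982), Chgb -0.25 and Tph1 -0.30, none of these last called. The part of these cell types in the results was not tested.

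Profiles over the 6 arrays were compared by the root mean square difference of log2 signals centred on each gene's mean, among 12547 other genes tested. The genes nearest to Ptger4 were Chrm1 (0.027) and Trmt10c (0.031), both called lower. Those nearest to Guca2b were Lpin3 (0.071), called higher, and Slc2a12 (0.118), not called. Prkg2 was nearest to Wtip (0.090), called lower, and Tasor (0.104), not called. Guca2a had Notch3 (0.045) and Map3k21 (0.048), Gucy2c had Pml (0.030) and Zdhhc4 (0.031), and Vipr1 had Igsf9 (0.018) and Wee1 (0.031), none of them called. These genes were picked for their likeness to a member, so a direction shared with it follows from the choice and is no separate result. Smaller changes leave more genes at a small distance, so the distances are not comparable between members.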

How the data were processed

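Each array's deposited intensity per probe set is linear and was made with GCOS, per the submitters' processing notes, with version and settings not given in the sources used here. These values of the authors had equal trimmed means (2% left out at each end), so they were scaled between arrays. Precision is limited by there being 3 arrays a group.

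The 25th percentile of all values, 31.4, was added before taking log2, which understates changes of dim genes. The 64 array controls and probe sets under the 40th percentile of mean log2 value were left out, and 27022 of 45101 were tested with limma 3.58.1 in R 4.3.3 (lmFit, eBayes, trend in the variance, genotype alone in the model, two-sided, no further normalization). P-values were adjusted over all of them by the Benjamini-Hochberg method, with a threshold of 0.05. SE and 95% intervals are limma's; SD is over signals. The fit was checked on simulated data.

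The platform annotation named 1 gene for 34958 probe sets, several for 932 and none for 9211; symbols are RefSeq's (GRCm38.p6), with 34754 of 34958 gene IDs matched. Nherf1 and Nherf4 of the lists were matched by their older symbols Slc9a3r1 and Pdzd3. A gene of a list was represented by the probe set with the highest mean log2 value. Named genes were the members, their ligands, the other receptors of these and both effectors whatever their values. Also named were up to 4 called genes per pathway list and 2 per marker list in each direction, and the 2 nearest profiles of each member. Further genes were named after their values were seen: Vasp, Hpgd, Gnas, Slc9a3r1, Chga, Gcg, Chgb, Tph1, the goblet and immune cell markers given as not called, and the markers under the filter. Members and lists were chosen with earlier results of these data known. The alternatives tried were both other scalings (medians set equal, quantile), pseudocounts of 8 and 100, no filter and a filter at the 60th percentile, eBayes without a trend, the replicate number as a block, NHE3-/- array 3 alone, and each array left out in turn.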

Additional observations from a re-analysis of the deposited data

How the results depend on the processing

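The member probe sets, the pathway list counts, the pathway genes named by rule and both within-array differences were recomputed under 15 alternatives. Probe sets under the stricter filter had 14. The cell type markers, the nearest profiles and the genes named after their values were seen were not recomputed. Member probe sets called higher numbered 1 as reported, and 0 without a mean-variance trend or with NHE3-/- array 3 alone, and those called lower numbered 3 as reported and 1 with medians set equal, without a trend or with NHE3-/- array 3 alone, but 4 after quantile normalization and 4 with the stricter filter. Leaving out 1 array gave 0 to 1 higher and 1 to 3 lower. Pathway genes called lower numbered 11 as reported, 6 with medians set equal, 7 without a trend and 7 with NHE3-/- array 3 alone, and 3 to 8 when 1 array was left out (3 without NHE3+/+ array 3). Pathway genes called higher stayed between 5 and 8. Adora3 ran from -0.23 to 0.0328 with 1 array left out, the latter without NHE3-/- array 2. Equal replicate numbers did not pair the arrays, since deviations from the group means correlated at 0.026, -0.038 and 0.0034. With the replicate block, members gave 1 higher and 3 lower and pathway genes 6 and 9; it changed the calls of Prkacb (adjusted p = 0.0507), Pde1c (0.0733) and Creb1 (0.0749) and of no other member or named pathway gene. Over all probe sets, 1342 were higher and 1685 lower (44.3% higher), against 1597 and 839 (65.6%) with equal medians, 1337 and 1333 (50.1%) once quantile-normalized, 1075 and 1128 with no filter, 511 and 558 without a trend, 767 and 1268 with NHE3-/- array 3 alone, and 839 to 1211 higher and 774 to 1385 lower with 1 array left out. Vipr1 minus Ptger4 was 0.73 with NHE3-/- array 3 alone, against 0.83. Where the cause of a difference is not given by fewer arrays or probe sets, the cause was not tested. Dim genes such as Vipr2 and Prkg1 are limited by signal over background, for which no detection calls were used.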
